A study of Homo sapiens with 8 samples.

Results

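LP-1 is a human multiple myeloma cell line, a tumour of antibody-secreting plasma cells grown in suspension. The comparison described here sets its bortezomib-resistant derivative (BR) against the parental, wild-type line (WT) after both had received SI-2, and it asks which genes still differed between the lines when SRC-3 was inhibited. Its members were chosen by label, as the 2 BR and the 2 WT libraries that received SI-2, which are 4 of the 8 RNA-seq libraries of the study. The 4 groups of the study are WT and BR cells, each with 25 nM SI-2 or with DMSO, the vehicle, for 24 h and with 2 libraries. All were grown in RPMI-1640 with FBS. BR cells had been kept with bortezomib for 2 months according to the labels, which do not say whether the line is 1 clone or whether the drug was present during the 24 h, so resistance, drug exposure and the history of the line cannot be told apart. The labels do not say that the 2 libraries of a group came from separate cultures, so the p-values below measure the spread between these libraries.

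Bortezomib blocks the proteasome, the complex that degrades ubiquitinated proteins, and plasma cells are sensitive to it because they fold and discard large amounts of secretory protein. SRC-3, encoded by NCOA3, is a coactivator that joins transcription factors such as steroid receptors to histone-modifying enzymes. SI-2 is a small molecule that inhibits it. A pair of stress programmes is much studied in such cells. The unfolded protein response raises chaperones of the endoplasmic reticulum (ER), and the ATF4 programme raises amino acid synthesis and transport. Growth factor receptors signal through RAS and ERK, and ERK activity is read out by short-lived genes for transcription factors (EGR1, FOS, the ETV genes) and for its own inhibitors (the DUSP, SPRY and SPRED genes).

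Under SI-2 the WT libraries held 18085584 and 18248791 gene counts in all and the BR libraries 18570027 and 18192794. The level given for a gene is its CPM, the count scaled to the TMM-adjusted size of the library, and 13634 genes had enough counts to be tested among the 4 libraries. NCOA3, the target of SI-2, had 222 and 178 CPM in WT and 221 and 187 CPM in BR cells. The libraries carried plasma cell genes throughout, with IRF4, a transcription factor on which myeloma cells depend, at 728 to 911 CPM and the immunoglobulin joining chain JCHAIN at 3476 to 5412 CPM. NSD2 and FGFR3, which lie together at the breakpoint of the t(4;14) myeloma translocation, were at 577 to 764 CPM and at 638 to 1277 CPM. SLAMF7, a surface antigen of plasma cells, was low in all 4 libraries, at 0.896 to 1.19 CPM.

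The second BR SI-2 library stood apart from the other 7. It held 62 genes with at least 50 counts that had at most 10 counts in each other library, while no other library had such a gene. COL1A1, a fibrillar collagen, had 1032 counts there against 2 to 5 counts in the other SI-2 libraries, and COL3A1 had 998 counts against 1 to 3. TGM2, a transglutaminase, had 346 counts there and 0 in the other SI-2 libraries, and PAEP, a secreted protein of the endometrium, had 340 counts against 0 to 2. Together the 62 genes took 9207 counts, or 0.0506% of that library, and 73 to 90 counts in each other library. The origin of these reads was not tested. Of 20 markers of other blood, stromal and epithelial cells, 19 were found in the table, and their summed level was 86.9 and 66.7 CPM in WT SI-2, 121 CPM in the first and 253 CPM in the second BR SI-2 library, against 116 and 141 CPM in BR cells with DMSO. Of these sums, PECAM1, which is described below among the genes higher in BR cells, made up 46.5 and 28.2 CPM in WT and 89.3 and 87.9 CPM in BR SI-2 libraries, and COL1A1 and COL3A1 added 53.6 and 51.8 CPM in the second BR library. The T cell genes CD3E and CD2 and the epithelial gene EPCAM had 0 counts in the 3 other SI-2 libraries and 3, 3 and 26 counts in the second BR library. None of the 62 genes passed the filter on counts with all 4 libraries, and list medians that turn sign without this library are given without it as well.

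**Figure D1:**
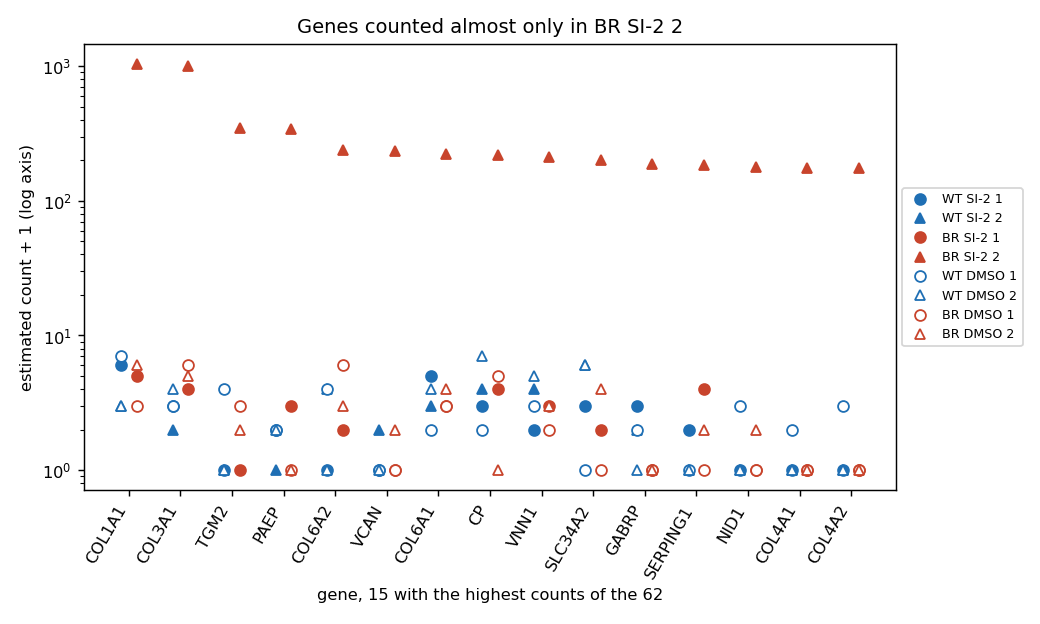
Estimated counts plus 1 (log axis) of 15 of the 62 genes in each of the 8 libraries; each point is 1 library. The second BR SI-2 library carries all 15, led by COL1A1 at 1032 and COL3A1 at 998 counts, and the other 7 libraries lie at or below 10 counts.

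Across all genes, 3 of 13634 (0.022%) differed between BR and WT cells under SI-2 at an adjusted p under 0.05 in edgeR's quasi-likelihood test, and all 3 were lower in BR cells. They were the read-through transcript CORO7-PAM16, the oncofetal RNA-binding protein gene IGF2BP3 and the chemokine gene CCL3. Without adjustment, a p under 0.05 was reached by 185 genes (1.36%) on the higher and 324 (2.38%) on the lower side. The groups did not overlap in 13.3% of all genes with BR above WT and in 15.1% with BR below WT. Of all genes, 51.5% had a log2 fold change above 0 and 48.5% one below 0. All 3 genes passed again without the second BR library, when 9 of 13888 genes were called. CCL3 alone passed without the first WT library. No gene passed without the second WT library (edgeR), when 249 had an unadjusted p under 0.05. Without the first BR library 221 genes were called, of which 199 were higher, and 167 of these 199 had in the second BR library at least 5 times their highest count in any other.

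IGF2BP3 (NCBI gene 10643) binds messenger RNAs and is expressed in embryonic tissue and again in tumours. It had 36.2 and 29.6 CPM in WT and 8.71 and 7.27 CPM in BR cells (counts of 659, 533, 159 and 140). The means were 32.9 ± 4.66 and 7.99 ± 1.02 CPM (SD, n = 2 each). The groups were far apart, and IGF2BP3 fell by 2.04 on the log2 scale (SE 0.24, edgeR adjusted p = 0.0372), which is 4.12-fold lower in BR cells. In bulk RNA, fewer expressing cells and less RNA per cell cannot be told apart. Its relatives IGF2BP1 and IGF2BP2 had log2 fold changes of 0.08 and -0.02. Of the 12 tested genes on a list of oncofetal RNA-binding proteins, 7 were higher and 5 lower, IGF2BP3 was the 1 that passed, and the median was 0.06 (-0.02 without the second BR library). The list took in IMP3 (0.29), a ribosome assembly gene distinct from IGF2BP3, so its counts do not describe oncofetal RNA-binding proteins alone. IMP3, MSI2 (0.15) and HMGA1 (-0.26), the members of lowest p beside IGF2BP3, did not pass.

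CCL3 (NCBI gene 6348) encodes a chemokine that myeloma cells secrete and that drives the formation of bone-resorbing osteoclasts. It had 62.8 and 124 CPM in WT cells and 16.5 and 17.2 CPM in BR cells. The second WT library was well above the first, and both were above the BR pair. CCL3 fell by 2.46 on the log2 scale (SE 0.31, edgeR adjusted p = 0.0487), or 5.52-fold, and its log2 fold change ran from -2.88 to -1.89 without 1 library. The near-identical copies CCL3L1 and CCL3L3, among which the counting divides reads, took at most 8 counts in any library. CCL4, the neighbouring chemokine gene that the study also names, was under the filter, where the WT libraries held 3 and 6 counts and each BR library 1 count. On a list of chemokines and NF-kB targets 21 genes were tested, 12 of them higher and 9 lower (median 0.06, and -0.11 without the second BR library). CCL5, which attracts T cells, followed CCL3 in direction with 22.9 and 58.3 CPM in WT and 14.7 and 18.2 CPM in BR cells, but did not pass (edgeR adjusted p = 0.797). CXCL10 (log2 fold change 1.28, with overlapping groups of 42 and 9 against 90 and 38 counts, and from 0.50 to 2.75 without 1 library), an interferon-induced chemokine, and CXCR4 (0.34), the chemokine receptor that holds plasma cells in the marrow, lay on the other side and did not pass either.

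CORO7-PAM16 (NCBI gene 100529144) is an annotated transcript that runs from CORO7, a coronin gene, into PAM16, a gene of the mitochondrial import motor. It had 77 and 51 counts in WT SI-2 cells and, after rounding, 0 in both BR SI-2 libraries (edgeR adjusted p = 0.0372). Against a limit of 3 counts per library, this is at least 22.1-fold lower. Its reads overlap those of its parents, so its counts depend on how the counting divided them. Its parents overlapped between the groups. CORO7 held 4452 and 6668 counts in the WT libraries and 5894 and 6561 in the BR libraries, and PAM16 held 186, 218, 206 and 215 in the same order. With DMSO the WT libraries held 215 and 226 counts of it and the BR libraries 173 and 57, so it was not near 0 there.

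The other 9 lower genes named by rule, those of lowest p with the groups apart, did not pass the adjustment (edgeR adjusted p from 0.222 to 0.3002), and their log2 fold changes ran from -2.06 to -1.16. LY9 (NCBI gene 4063), a receptor of the SLAM family on lymphocytes and plasma cells, had 35.1 and 36.1 CPM in WT and 16.4 and 14.3 CPM in BR cells. It is the clearest of these in its spread, with groups of 35.6 ± 0.726 and 15.3 ± 1.44 CPM (SD, n = 2 each). INHBE, an activin subunit gene and a target of ATF4, had 76.7 and 136 CPM against 38.5 and 27.7 CPM. ETV5, an ETS factor that ERK induces, had 13.4 and 22.3 CPM against 5.59 and 3.01 CPM, which is 4.16-fold lower in BR cells. ST14, the membrane protease matriptase, also differed 4.16-fold, with 7.53 and 16.1 CPM in WT and 2.69 and 2.96 CPM in BR cells. CYP26A1, the enzyme that clears retinoic acid, had 6.76 and 7.06 CPM in WT and 2.52 and 1.30 CPM in BR cells. PIP5KL1, a phosphoinositide kinase-like gene on chromosome 9, had 29.9 and 62.2 CPM against 13.9 and 10.4 CPM. MYBPC2, a myosin-binding protein of fast muscle, had 21.5 and 40.2 CPM against 8.44 and 11.0 CPM. PLD4, a lysosomal nuclease of the phospholipase D family, had 31.4 and 50.6 CPM against 17.98 and 13.3 CPM, and SH3BGRL2 had 39.9 and 45.3 CPM against 20.8 and 17.5 CPM. In INHBE, ETV5, ST14, PIP5KL1, MYBPC2 and PLD4 the second WT library was well above the first. Without 1 library the log2 fold change ran from -2.05 to -1.21 for INHBE, from -2.55 to -1.64 for ETV5 and from -2.52 to -1.41 for ST14. It ran from -2.37 to -1.30 for PIP5KL1, from -2.06 to -1.14 for MYBPC2 and from -1.71 to -1.01 for PLD4.

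No gene passed in the other direction. CRYBB1 (NCBI gene 1414), a structural protein of the lens, came nearest, with 1.48 and 1.56 CPM in WT and 7.62 and 7.43 CPM in BR cells. Its libraries agreed closely within each group, and the log2 fold change was 2.30 (SE 0.32, edgeR adjusted p = 0.0789), or 4.93-fold. P4HA2 (NCBI gene 8974), a catalytic subunit of the collagen prolyl 4-hydroxylase, had 89.8 and 63.6 CPM in WT and 184 and 205 CPM in BR cells (log2 fold change 1.34, SE 0.22, edgeR adjusted p = 0.222). PECAM1, the adhesion molecule CD31 of endothelium, platelets and some plasma cells, had 46.5 and 28.2 CPM in WT and 89.3 and 87.9 CPM in BR cells. The BR libraries lay close together for these 3 genes. RTL6, a gene derived from a retrotransposon, had 4.89 and 5.22 CPM in WT and 10.7 and 12.8 CPM in BR cells. LYAR, a nucleolar protein, had 19.2 and 16.2 CPM against 33.3 and 28.7 CPM. KIAA1549L (log2 fold change 0.93) and LOC102724788 (1.06) were also higher and did not pass.

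Of the 12 higher genes, 3 depended on which BR library was read. SPARC, a protein of the extracellular matrix, held 6 and 3 counts for WT, 39 in the first BR library and 581 in the second. Its log2 fold change was 6.002 (SE 1.17, edgeR adjusted p = 0.3002) and ran from 3.05 to 6.90 when a library was left out. IGFBP4, which binds insulin-like growth factors, held 6 and 11 counts for WT against 15 and 225 for BR, and its log2 fold change ran from 0.78 to 4.63. In both, the high value lies in the library that also held the collagen reads. COL14A1, a collagen of the fibril-associated kind, was the reverse, with 4.01 and 3.67 CPM in WT and 19.7 and 7.22 CPM in BR cells, so that the first BR library was the higher. It passed when the second was left out.

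**Figure D2:**
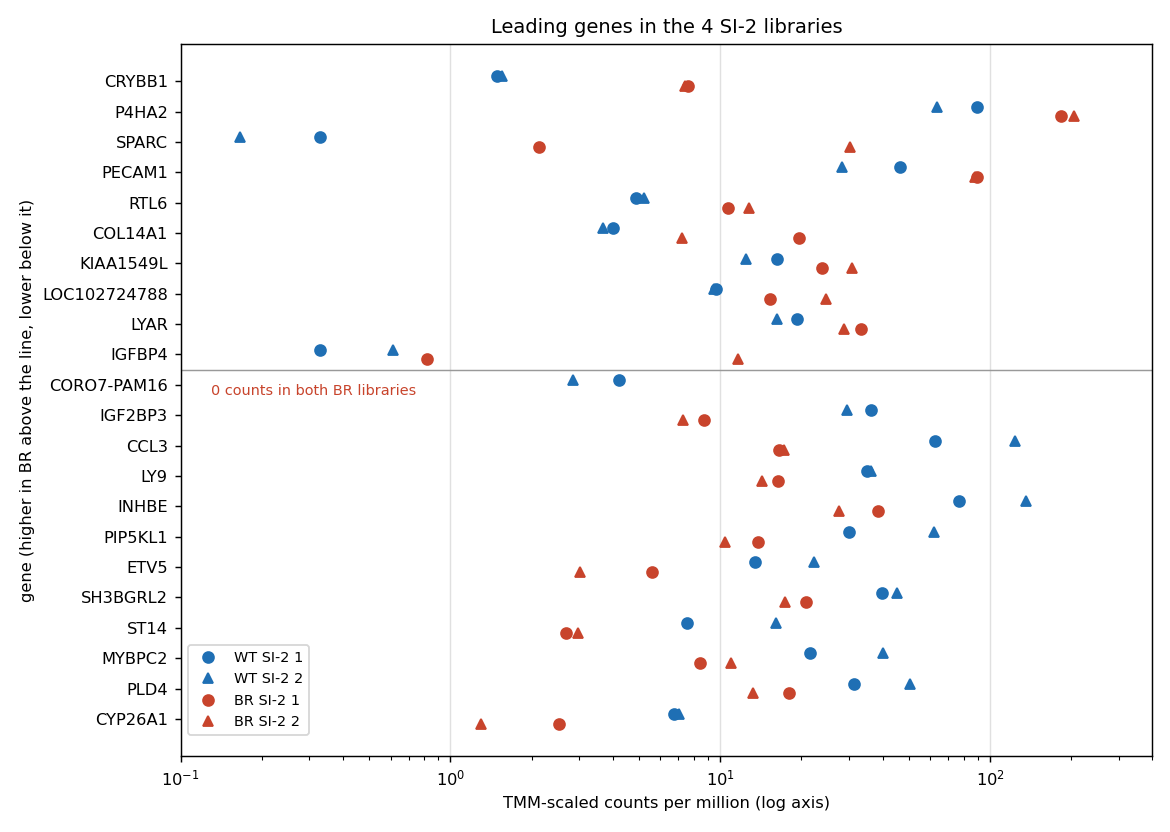
CPM (log axis) of 22 of the 24 named genes in the 4 SI-2 libraries, 10 higher and 12 lower in BR cells; each point is 1 library. The groups do not overlap in any, which the rule asked of those that did not pass, and the WT libraries lie further apart than the BR libraries for CCL3 (62.8 and 124 against 16.5 and 17.2).

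The genes that report ERK activity were lower in BR cells as a group. Of the 23 listed, 19 were tested, and 14 were lower and 5 higher, with a median log2 fold change of -0.34 against 0.01 over all genes. An unadjusted p under 0.05 was reached by 9 of them, all lower, where 2.38% of all genes did so, and both BR libraries lay below both WT libraries for 11 of the 19, against 15.1% of all genes. None passed the adjustment over all genes. The median deviation of the 19 genes from their mean over the 8 libraries was 0.35 and 0.32 in the WT and -0.07 and -0.07 in the BR libraries with SI-2, so that the groups were apart and the replicates alike. Leaving out 1 library at a time gave medians from -0.57 to -0.37.

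All 3 PEA3-type ETS factors were on the lower side, ETV5 by a log2 fold change of -2.06, ETV4 by -1.90 and ETV1 by -0.94. ETV4 had 3.79 and 5.56 CPM in WT and 0.727 and 1.75 CPM in BR cells. The immediate-early factors EGR1 (-2.33, from 72, 26, 7 and 13 counts) and FOS (-1.31, from 51, 52, 18 and 25 counts) were lower at few counts. Among the inhibitors that ERK switches on, SPRED2 had 65.7 and 65.4 CPM in WT and 38.1 and 32.9 CPM in BR cells, which is 1.85-fold lower (edgeR adjusted p = 0.409). SPRY4 had 2.97 and 2.84 CPM against 1.32 and 1.30 CPM, and the phosphatase DUSP5 had 11.5 and 30.2 CPM against 10.4 and 7.17 CPM. SPRED2 and SPRY4 were nearly equal within each group, whereas the DUSP5 difference rested mainly on the second WT library. DUSP6, a classic feedback phosphatase, overlapped between groups at 5 to 22 counts. PHLDA1 (0.46) and DUSP4 (0.30) were the members of lowest p on the higher side.

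The receptors and RAS proteins upstream of ERK did not share that direction. Of 17 tested, 11 were higher and 6 lower, with a median of 0.04. An unadjusted p under 0.05 was reached by 2, FGFR3 and KIT, both higher, where 1.36% of all genes did so on that side. FGFR3, the receptor tyrosine kinase activated by t(4;14), had 638 and 957 CPM in WT and 1073 and 1277 CPM in BR cells, a log2 fold change of 0.56 (SE 0.22, edgeR adjusted p = 0.9998). KIT, the stem cell factor receptor, held 12 counts in each WT library against 37 and 21 for BR. MAP2K2 (-0.23), the kinase that phosphorylates ERK, and HRAS (-0.17) were the members of lowest p on the lower side.

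ATF4 targets of the amino acid response were lower in BR cells in 29 of 30 tested members (32 listed), with VLDLR (0.55), a lipoprotein receptor, as the exception. Their median log2 fold change was -0.51, 13 members had an unadjusted p under 0.05, all lower, against 2.38% of all genes, and 14 had BR below WT without overlap, against 15.1%. INHBE was foremost among them. ASNS, which makes asparagine, had 625 and 827 CPM in WT and 568 and 335 CPM in BR cells. SLC3A2, the heavy chain of the cystine and leucine transporters, had 696 and 963 CPM against 623 and 478 CPM, and TRIB3, a pseudokinase that restrains the programme, had 116 and 191 CPM against 99.6 and 85.3 CPM. ATF4 itself had 751 and 1299 CPM in WT and 757 and 617 CPM in BR cells, which overlap. No member passed the adjustment. The libraries of each group differed widely here. The median deviation of the 30 genes was -0.15 in the first and 0.47 in the second WT library, and -0.14 in the first and -0.60 in the second BR library, so that the first WT and the first BR library were alike and the gap lay between the second ones. Their median log2 fold change was -0.15 without the second WT library, -0.33 without the second BR library, -0.75 without the first WT and -0.74 without the first BR library.

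ER chaperones and the other genes of the unfolded protein response showed the same arrangement. Of 24 tested, 22 were lower and 2 higher, and the 2 higher genes, the sensors ATF6 (0.03) and EIF2AK3 (0.02), were near 0. The median was -0.43, 7 members had an unadjusted p under 0.05, all lower, against 2.38% of all genes, and 12 had BR below WT without overlap, against 15.1%. CRELD2, a secreted folding factor, was the member of lowest p, with 52.5 and 78.5 CPM in WT and 44.0 and 28.9 CPM in BR cells (log2 fold change -0.85, SE 0.26, edgeR adjusted p = 0.933). The disulfide isomerase P4HB had 1263 and 1721 CPM against 1059 and 1008 CPM. HSPA5, the major chaperone of the ER, had 628 and 837 CPM in WT cells and 650.3 and 276 CPM in BR cells, so that only the second BR library was low. HSP90B1, the ER member of the HSP90 family, had 1269 and 1241 CPM against 1149 and 706 CPM. Median deviations were 0.01 and 0.24 in the WT and 0.01 and -0.71 in the BR libraries, and the median log2 fold change was -0.17 without the second and -0.84 without the first BR library. That library is also the one with the collagen reads, and the part of those reads in this difference was not tested. With DMSO the second BR library was low in the ER genes as well (median deviations of 0.50 and 0.29 in WT and 0.19 and -0.63 in BR cells).

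**Figure D3:**
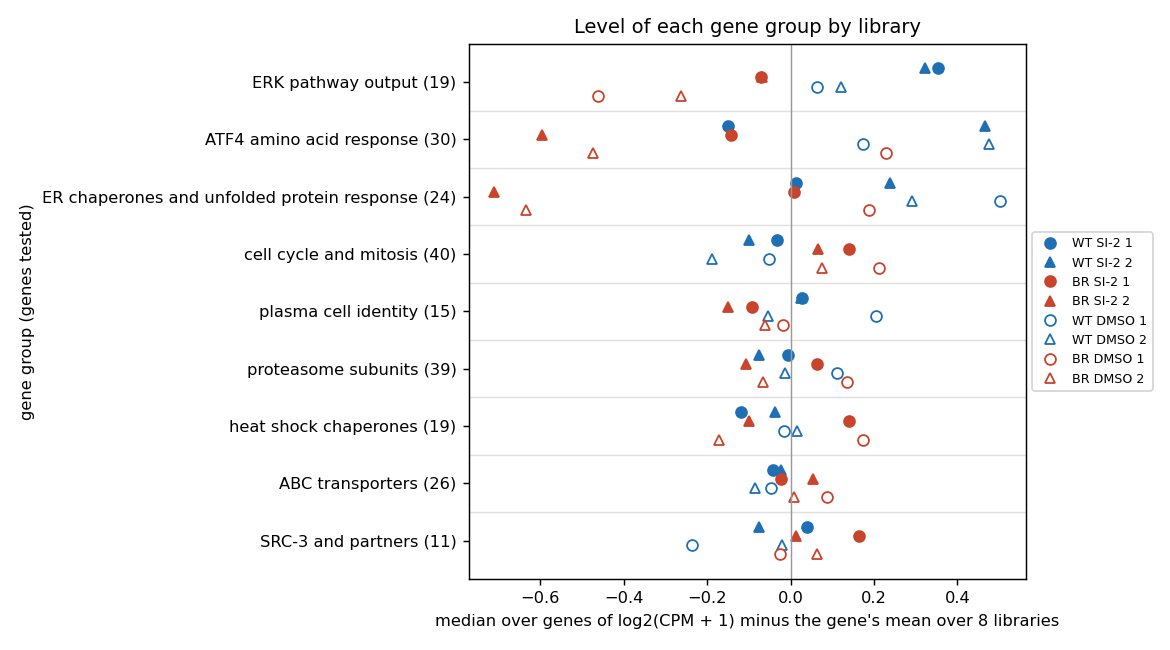
Median deviation (log2) of 9 gene groups from each gene's mean over the 8 libraries, with 1 point per library. ERK output genes separate WT (0.35, 0.32) from BR (-0.07, -0.07) under SI-2, whereas in the ATF4 and ER groups the first WT and first BR libraries lie together (-0.15 and -0.14, 0.01 and 0.01).

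Some of the promoters of these ER genes carry a known element, and 3 are shown as background. The ER stress response element, CCAAT and CCACG with 9 bases between them, searched on both strands in the 250 bases before to 50 bases after each RefSeq start (GRCh38.p14), was found in 6 of the 23 ER genes with a promoter in the table (26.1%) and in 22 of all 27305 promoters (0.0806%). The 6 were HSPA5, HSP90B1, CALR, CANX, CRELD2 and XBP1. The list was made of known genes of this response, and a promoter sequence does not depend on the libraries. The larger share in the list is therefore no result of these data. The 200 bases up to the last base before the start are given for 3 of them, with the element in capitals. HSPA5 lies on the minus strand at chr9:125241344-125241543, HSP90B1 on the plus strand at chr12:103930210-103930409 with 2 elements, the second on the opposite strand, and CRELD2 on the plus strand at chr22:49918434-49918633 with the element on the opposite strand.
HSPA5: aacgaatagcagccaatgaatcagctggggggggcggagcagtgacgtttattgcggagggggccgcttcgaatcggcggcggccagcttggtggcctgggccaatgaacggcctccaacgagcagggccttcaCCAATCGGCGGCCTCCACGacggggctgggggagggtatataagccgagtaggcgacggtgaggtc
HSP90B1: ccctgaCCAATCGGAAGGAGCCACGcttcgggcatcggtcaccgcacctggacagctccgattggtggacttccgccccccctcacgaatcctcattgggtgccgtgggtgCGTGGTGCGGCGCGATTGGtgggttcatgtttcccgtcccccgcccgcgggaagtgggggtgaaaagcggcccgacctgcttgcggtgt
CRELD2: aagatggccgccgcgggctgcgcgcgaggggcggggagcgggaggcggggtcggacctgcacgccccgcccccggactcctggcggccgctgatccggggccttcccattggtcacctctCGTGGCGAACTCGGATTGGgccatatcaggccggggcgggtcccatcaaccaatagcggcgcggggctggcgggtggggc
The amino acid response element in the form TGATGNAAT was found in 0 of the 21 ATF4 targets with a promoter in the table and in 279 of the 27305 promoters (1.02%), which says only that these letters are not in those windows. The levels of the 6 ER genes with the element were not all alike. XBP1, the transcription factor of plasma cells and of the unfolded protein response, had 839 and 1043 CPM in WT and 966 and 627 CPM in BR cells, which overlap, while those of CRELD2 and HSP90B1 did not.

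Genes of the cell cycle and mitosis leaned the other way. Of 40 tested, 33 had a log2 fold change above 0 and 7 one below it, with a median of 0.23. An unadjusted p under 0.05 was reached by 3 on the higher side (1.36% of all genes) and 1 on the lower (2.38% of all genes). The groups were apart in 9 higher members (13.3% of all genes) and in 2 lower members (15.1% of all genes). The median deviations were -0.03 and -0.10 in the WT and 0.14 and 0.06 in the BR libraries. TOP2A, the mitotic topoisomerase, had 423 and 279.8 CPM in WT and 544 and 485 CPM in BR cells. MKI67, the proliferation marker Ki-67, had 540.1 and 399.8 CPM against 648 and 644 CPM, and the spindle factor TPX2 had 174 and 135 CPM against 237 and 204 CPM. CDKN1A, the cell cycle inhibitor p21, was lower in BR cells, with 61.4 and 81.0 CPM in WT and 38.2 and 34.2 CPM in BR cells (log2 fold change -0.98, SE 0.21, edgeR adjusted p = 0.409). CDC6 (-0.28), a replication licensing factor, was next on that side. None of these passed the adjustment, and the median over the list ran from 0.11 to 0.22 without 1 library.

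Regulators of apoptosis were divided. Of 13 tested BCL2 family genes, 4 were higher and 9 lower, with a median of -0.04. BCL2L1, the anti-apoptotic BCL-xL, had 47.1 and 47.4 CPM in WT and 74.5 and 60.2 CPM in BR cells (log2 fold change 0.51, SE 0.20, edgeR adjusted p = 0.9998). HRK, a pro-apoptotic BH3-only gene, had 11.6 and 28.2 CPM in WT and 8.71 and 7.82 CPM in BR cells (log2 fold change -1.27, SE 0.37, edgeR adjusted p = 0.826). BAK1 (0.29), BBC3 (-0.46) and BCL2 (-0.02) did not pass.

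Plasma cell identity genes were lower in 10 and higher in 5 of 15 tested, with a median of -0.19. An unadjusted p under 0.05 was reached by 3, all lower, against 2.38% of all genes. FKBP11 and MZB1, both folding factors of secretory cells, were the members of lowest p. FKBP11 had 76.8 and 104 CPM in WT and 56.4 and 39.7 CPM in BR cells, and MZB1 had 335 and 426 CPM against 288 and 199 CPM. Both were lowest in the second BR library, as was the median of the ER genes. The lineage factors differed less, with IRF4 at 911 and 883 CPM in WT and 819.9 and 728 CPM in BR cells and PRDM1 (BLIMP-1) at 283 and 263 against 249 and 199 CPM. CD38 (0.16) and JCHAIN (0.09) were the members of lowest p on the higher side. Among 17 tested genes for antigens and proteins targeted by myeloma drugs, 8 were higher and 9 lower (median -0.08). LY9 led them. SDC1, the plasma cell marker CD138, had 21.0 and 38.2 CPM in WT and 16.5 and 21.1 CPM in BR cells, which overlap, and TNFRSF17, the antigen BCMA, overlapped as well, at 389 and 216 against 282 and 248 CPM. XPO1 (0.29), the nuclear exporter, and CD74 (0.30), the invariant chain, were on the higher side.

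SRC-3 and its partners lay around 0 as well. Of 11 tested, 6 were higher and 5 lower, and the median was 0.02. None had an unadjusted p under 0.05, where 3.73% of all genes did, so 11 genes are too few to read this count. The groups were apart in 1 higher member (13.3% of all genes) and 0 lower members (15.1% of all genes). The higher member was NSD2, a histone methyltransferase that t(4;14) overexpresses, with 624 and 577 CPM in WT and 726 and 764 CPM in BR cells (log2 fold change 0.31). Its groups were apart with DMSO too, at a log2 fold change of 0.42 (edgeR unadjusted p = 0.0448, adjusted p = 0.979). The other coactivators and cofactors of the rule had log2 fold changes of 0.24 for NCOA1, -0.25 for the arginine methyltransferase PRMT1 and -0.05 for KMT2D, a histone methyltransferase. The list of genes that the study itself names held 11, of which 8 were tested, 5 higher and 3 lower. Their median was 0.06, with -0.13 without the second and 0.34 without the first BR library. EGR1 is among them, as is CBS, a transsulfuration enzyme (-0.82), which shares its reads with the near-identical copy CBSL. The ABC transporter genes ABCC1 (0.27) and ABCA3 (0.16) and the receptor gene IGF1R (0.01) did not pass. TNC was below the filter, with 5, 6, 7 and 32 counts in the order WT and BR, the highest again in the second BR library.

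Proteasome genes, whose product bortezomib binds, lay around 0. Of 39 proteasome subunit genes, all tested, 21 were higher and 18 lower, with a median of 0.01. PSMB5, the subunit that bortezomib binds, had 33.5 and 49.9 CPM in WT and 41.2 and 25.7 CPM in BR cells (log2 fold change -0.32), which overlap. PSMB9, a subunit of the immunoproteasome, had 34.2 and 28.0 CPM against 40.1 and 50.6 CPM (log2 fold change 0.55, SE 0.22, edgeR adjusted p = 0.9998), and PSMC5 (0.42) and PSMD8 (-0.26) were next. Of 19 tested heat shock chaperone genes 12 were higher and 7 lower, with a median of 0.18 that became -0.03 without the first BR library. DNAJB1 (0.40) and DNAJA1 (0.32) lay on the higher and HSPA1A (-0.79) and HSF1 (-0.26), the heat shock factor, on the lower side. ABC transporter genes were higher in 20 and lower in 6 of 26 tested, with a median of 0.06 (-0.01 without the second BR library). None had an unadjusted p under 0.05, where 3.73% of all genes did. ABCD4 (-0.34) and ABCB6 (-0.29) led the lower side.

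The remaining lists held few genes apart from the rest. Of 11 tested collagen hydroxylases and related enzymes 3 were higher and 8 lower (median -0.22). P4HA2 was higher while its partner subunit P4HB (-0.53) was lower, and LOX (1.10), which cross-links collagen, and PLOD3 (-0.39), a lysyl hydroxylase, did not pass. Hypoxia and glycolysis genes were higher in 15 and lower in 10 of 25 (median 0.13), with NDRG1 (0.38), ENO2 (0.38), PDK1 (-0.48) and VEGFA (-0.42) of lowest p. Cholesterol synthesis genes were higher in 16 and lower in 4 of 20 (median 0.13), with PMVK (0.31), FDPS (0.32), SC5D (-0.15) and INSIG1 (-0.13) of lowest p, and this median was -0.01 without the first BR library. Of 21 genes of the NRF2 and glutathione defence, 7 were higher and 14 lower (median -0.15, and 0.12 without the second WT library). FTL, the light chain of ferritin, had 1272 and 1680.4 CPM in WT and 1011 and 825 CPM in BR cells (log2 fold change -0.69, SE 0.19, edgeR adjusted p = 0.783), and TXN (-0.38), GCLC (0.25) and GPX4 (0.12) did not pass.

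Antigen presentation and interferon genes were higher in 11 and lower in 14 of 25 (median -0.04, and 0.01 without the second BR library). STAT2, which transmits type I interferon signals, had 358 and 363 CPM in WT and 279 and 237 CPM in BR cells, and IFIT1, an interferon-induced gene, held 31 and 37 against 15 and 18 counts. Of 16 tested nuclear receptors, 7 were higher and 9 lower (median -0.03). NR4A1, an early-response receptor, had 4.99 and 6.53 CPM in WT and 2.63 and 3.51 CPM in BR cells, and PPARA (-0.29) was lower. VDR (0.67), the vitamin D receptor, and RORA (0.34) were higher, both with overlapping groups. RORA had 158 and 156 CPM in WT and 261 and 139 CPM in BR cells, so only the first BR library was high. Of the markers of other cells 5 were tested, 4 higher and 1 lower (median 0.74, and 0.20 without the second BR library). LYZ, the lysozyme of myeloid cells, held 44 and 57 counts for WT against 89 and 86 for BR, and NCAM1 (-0.09) was the lower one.

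The DMSO libraries, none of which enters the edgeR fit under SI-2, were used to check the direction of the leading genes. They did enter the TMM scaling of the CPM, by which groups were called apart, and the gene means behind the median deviations. Between BR and WT cells with DMSO, 1 of 13583 genes (0.00736%) passed at an adjusted p under 0.05, ETV5, and 575 (4.23%) had an unadjusted p under 0.05, 210 (1.55%) of them higher and 365 (2.69%) lower in BR cells. The groups did not overlap in 15.7% of genes with BR above WT and in 17.4% with BR below WT, and 50.1% and 49.9% had log2 fold changes above and below 0. Of the 24 named genes 23 could be tested there, and all 23 were in the direction seen under SI-2, with both BR libraries beyond both WT libraries on that side, where this held for 29% of all 13444 genes tested in both. An unadjusted p under 0.05 was reached by 21 of the 23, where 4.05% of all genes had such a p in the shared direction. The 24th, SPARC, had too few counts with DMSO. The treatments were not fully separate samples of the lines, since the difference between replicates 1 and 2 under SI-2 was correlated with that under DMSO across 13896 genes, with r = 0.44 in WT and 0.37 in BR cells. What same-numbered libraries share, such as a culture, is not given.

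The sizes were close for most. IGF2BP3 had 35.0 and 29.7 CPM in WT and 7.96 and 8.43 CPM in BR cells with DMSO, a log2 fold change of -1.98 beside -2.04 under SI-2. CCL3 had 42.6, 129.7, 6.84 and 18.04 CPM in the same order (-2.79 beside -2.46), with the second library the higher in both lines. ETV5 had 25.9 and 25.6 CPM in WT and 4.58 and 3.50 CPM in BR cells with DMSO, a log2 fold change of -2.67 (SE 0.24, edgeR adjusted p = 0.0361) beside -2.06 under SI-2. CRYBB1 had 1.76, 1.11, 9.38 and 6.63 CPM (2.47 beside 2.30), and P4HA2 had 69.6, 55.5, 167 and 206 CPM (1.57 beside 1.34). COL14A1 (0.98 beside 1.796) and IGFBP4 (2.09 beside 3.73) were smaller with DMSO.

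**Figure D4:**
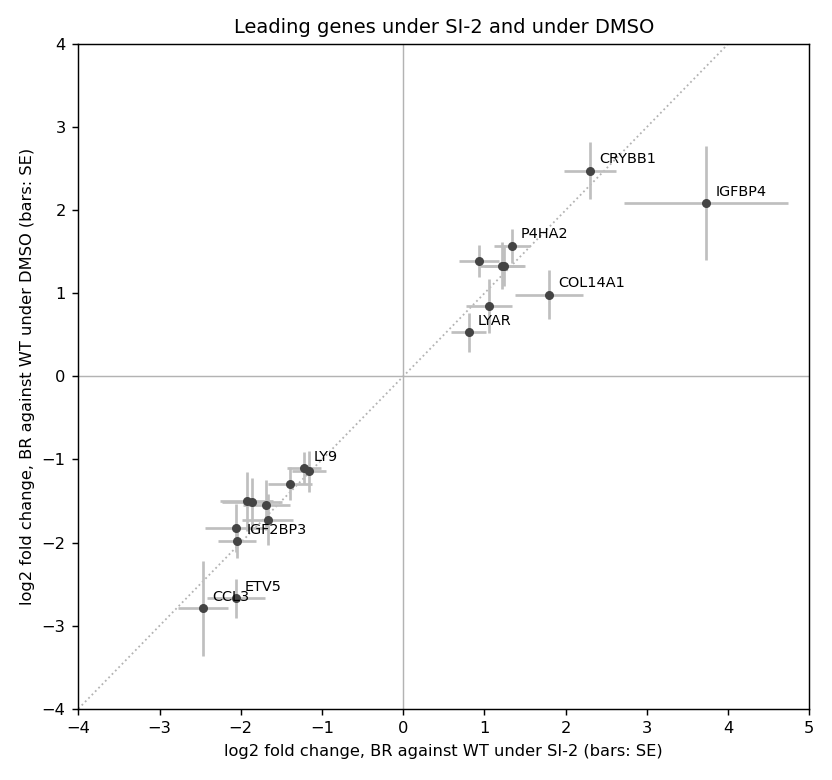
Log2 fold change of BR over WT under SI-2 (horizontal) and under DMSO (vertical) for 20 of the 23 named genes tested in both, with bars of 1 SE; CORO7-PAM16 is left out because it had 0 counts in BR SI-2. Every gene drawn lies on the same side of 0 in both, with IGF2BP3 at -2.04 and -1.98 and CRYBB1 at 2.30 and 2.47.

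Over the 100 genes of lowest p under SI-2, 95 had the same direction with DMSO, where 77.4% of all genes did. These were all 68 of the lower and 27 of the 32 higher genes. In that direction 80 also had an unadjusted p under 0.05 with DMSO, against 4.05% of all genes. The 5 that turned were HSPE1-MOB4, ST20-MTHFS, TMEM110-MUSTN1, CLDN4 and RAPSN. Of these 3 are read-through transcripts, and CLDN4, a tight junction gene, held 4 and 6 counts for WT against 15 and 80 for BR under SI-2, the highest in the second BR library. The test of whether the BR to WT difference itself changed with SI-2, an interaction term in a fit of all 8 libraries, called 0 of 13896 genes (0%) in edgeR, with 74 at an unadjusted p under 0.05, and 1 gene in DESeq2, CORO7-PAM16 (log2 -7.55, adjusted p = 0.0342). Some gene groups had like medians with DMSO, at -0.51 (ERK output), -0.50 (ATF4), -0.51 (ER) and 0.25 (cell cycle), beside -0.34, -0.51, -0.43 and 0.23 under SI-2. Other lists turned sign. Among them, cholesterol synthesis had -0.05 with DMSO beside 0.13, heat shock chaperones -0.02 beside 0.18 and markers of other cells -0.02 beside 0.74. Drug targets had 0.08 beside -0.08, and oncofetal RNA-binding proteins -0.05 beside 0.06.

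Chromosome 9 stood out when the genes were ordered by position, a pattern chosen after the values were seen and given without a test. Its 515 genes tested in both treatments had a median log2 fold change of -0.15 under SI-2 and -0.16 with DMSO, which is a BR level of 0.9 and 0.898 times that of WT cells. The medians of the other chromosomes ran from -0.07 to 0.06 under SI-2 and from -0.08 to 0.04 with DMSO. Chromosome 18 had the lowest of these in both treatments, and 64.1% of its genes were lower in BR cells under SI-2. Of the 515 genes, 73.4% were lower in BR cells, against 47.6% of the genes elsewhere, and 6.80% were lower at an unadjusted p under 0.05, against 2.21%. The median deviation of these genes was 0.06 and 0.09 in the WT and -0.06 and -0.07 in the BR libraries with SI-2, so both replicates of each line were alike, the second BR library included.

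In 6 successive parts of about 86 genes, the first part, from LOC102724813 to C9orf24, had a median of 0.02, and the other 5, from FAM219A to EHMT1 at the far end, had medians from -0.23 to -0.16. Of the 50 lowest windows of 25 neighbouring genes among 12756 on all chromosomes, 46 lay on chromosome 9, as did 31 of the 50 lowest windows of 15 genes and all 50 of 51 genes, and windows that overlap share genes. The lowest window of all was on X (-0.32, CENPI to MORF4L2). The genes that were lower at an unadjusted p under 0.05 included PIP5KL1 (-1.93), ST6GALNAC4 (-1.795), a sialyltransferase that held 190 and 377 counts for WT against 98 and 71 for BR, PPP1R26 (-1.93), CERCAM (-1.06), SEC61B (-0.78), a subunit of the ER translocon, and RPL7A (-0.55), a ribosomal protein.

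**Figure D5:**
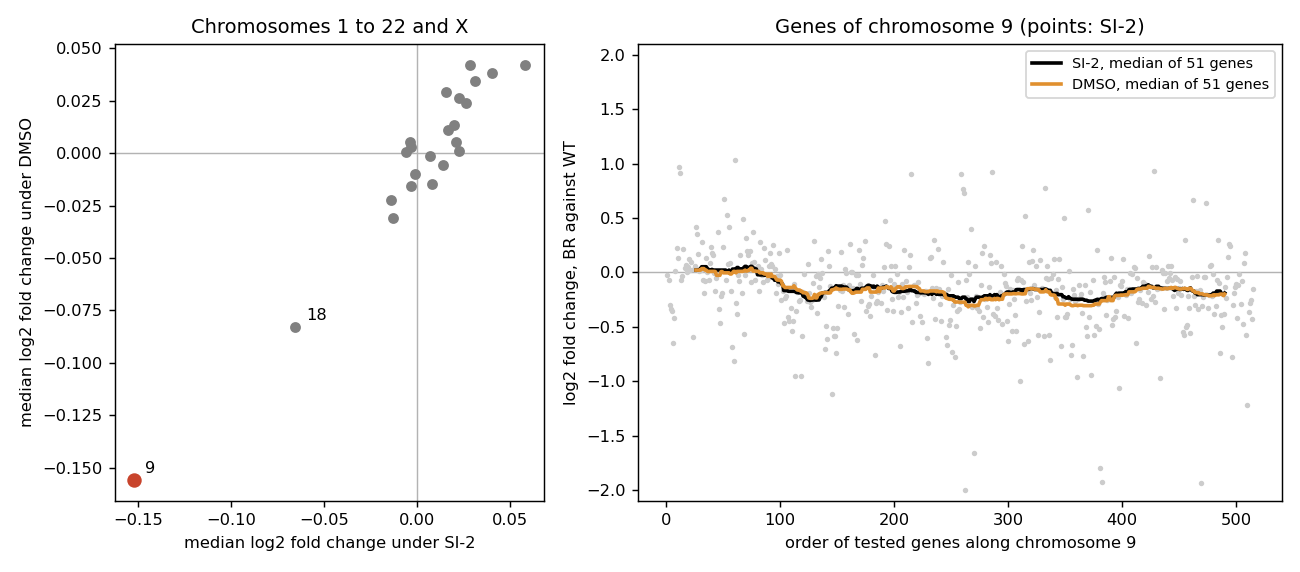
Left, median log2 fold change (BR over WT) of each chromosome under SI-2 (horizontal) and DMSO (vertical), with chromosome 9 at -0.15 and -0.16. Right, SI-2 log2 fold changes of the 515 chromosome 9 genes in order along the chromosome (points, drawn at 2 or -2 where beyond) with running medians over 51 genes for both treatments; the running median lies near 0 over the first part of 86 genes (median 0.02) and below 0 over the rest (-0.23 to -0.16).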

How the data were processed

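RNA of WT and BR LP-1 cells was sequenced by the authors on a BGISEQ-500, and their processing notes name BWA, Bowtie2, RSEM and hg19 without roles or versions. The deposited estimated counts per gene can hold decimals, since a read that fits several genes is split between them. The deposited FPKM values, scaled by the authors for gene length and library size, were used as an alternative. The 8 columns of condition averages were not used, nor were tables of the authors' own comparisons, which hold their fold changes and p-values. The gene table had 18564 genes, of which 25 symbols had been turned into dates, and 18267 identifiers were found in RefSeq (GRCh38.p14), used for names, gene order and promoters. No molecular identifiers are described, so limits of 3 counts cover counting error only.

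Counts were rounded, filtered with filterByExpr, scaled by TMM and tested with edgeR 4.0.16 (glmQLFit and glmQLFTest, R 4.3.3) on the 4 SI-2 libraries alone, with Benjamini-Hochberg adjustment over all genes and a biological coefficient of variation of 0.183. The 4 DMSO libraries were fitted apart, and the interaction of line and treatment was tested in 1 fit of all 8. The SE of a log2 fold change was derived from its F statistic. Level changes of a list are medians over its tested members. Alternatives were upper-quartile scaling, library size only, no filter, genes kept at a CPM of 1 or more in 2 or more libraries, the newer edgeR form, a block for the replicate number, DESeq2 1.42.0, all 8 libraries in 1 fit, limma 3.58.1 on log2(FPKM + 1) and log2(FPKM + 0.1), and each library left out. Leaving out the genes near 0 outside the second BR SI-2 library and the settings for chromosome 9 were added after seeing the data. The edgeR fit of BR against WT under SI-2 was tested on simulated counts with known changes. Figures used Python 3.11.15 with matplotlib 3.10.9 and pandas 2.3.3.

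The named genes were the 12 of lowest p on each side among those past the threshold, filled up with genes whose groups did not overlap and whose mean was at least 50 counts, besides SRC-3 partners, genes the study names and the 2 members of lowest p on each side of each of 22 lists (495 entries). Others were named after their values were seen. The comparison, the rule and the lists were chosen with earlier results of these data known. A few genes that the rule also selects are counted in the summaries and otherwise not reported here.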

Additional observations from a re-analysis of the deposited data

How the results depend on the processing

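None of the 24 leading genes changed direction in any alternative. Their groups did not overlap in these same libraries, which the rule asked of those that did not pass. Leaving out 1 library or rescaling could therefore hardly turn a direction, so this is no independent check of it. The 3 calls under SI-2 became 4 with upper-quartile scaling and with library size only, stayed 3 with the CPM filter, with the newer edgeR form and without the genes near 0 outside the second BR SI-2 library, and became 0 without a filter on counts (528 at an unadjusted p under 0.05), 36 in DESeq2, 1 with all 8 libraries in 1 fit, 0 with limma on log2(FPKM + 1) (472 at an unadjusted p under 0.05) and 4 on log2(FPKM + 0.1). The 41 genes called with the replicate number as a block, 15 higher and 26 lower, and the 36 in DESeq2, 8 higher and 28 lower, each included the 3. Leaving out 1 library gave 0 to 221 calls, with the lone library assumed to vary like the other group. The 1 call with DMSO became 38 with the replicate block, 35 in DESeq2, 0 with all 8 libraries (540 at an unadjusted p under 0.05), 0 with limma on log2(FPKM + 1) (605 at an unadjusted p under 0.05) and 6 on log2(FPKM + 0.1), and 3 to 141 without 1 library. The replicate block left the interaction at 0 calls in edgeR (92 at an unadjusted p under 0.05), and DESeq2 gave 1. Replicate numbers pair nothing in the labels. The difference between replicates 1 and 2 correlated between the lines at r = 0.10 under SI-2 and 0.21 with DMSO, over only 2 pairs. The share of the 100 leading genes with the same direction under DMSO, 95%, ran from 80% to 97% without 1 library. The chromosome 9 median of -0.15 was -0.17 in genes with a mean of at least 100 counts, -0.17 with upper-quartile scaling, -0.12 with library size only, and -0.19 to -0.13 without 1 library.

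Of 90 other named genes, 21 changed sign in at least 1 setting. NCOA2 turned to 0.033 with library size only, 0.0030 in DESeq2 and 0.026 and 0.027 in the limma fits, CARM1 to 0.023, 0.037 and 0.039 with library size only and the 2 limma fits, and BCL2 to 0.0096, 0.020 and 0.020. Without 1 library, log2 fold changes ran from -0.13 to 0.18 for NCOA3, -0.032 to 0.024 for NCOA2, -0.10 to 0.29 for EP300, -0.20 to 0.19 for CARM1, -0.059 to 0.40 for ABCA3, -0.23 to 0.21 for BCL2, -0.25 to 0.32 for IGF1R, -0.12 to 0.0066 for KMT2D, -0.43 to 0.57 for CD38, -0.19 to 0.44 for JCHAIN, -0.54 to 0.25 for NCAM1, -0.075 to 0.12 for ATF6, -0.32 to 0.30 for EIF2AK3, -0.076 to 1.62 for VLDLR, -0.50 to 0.25 for HRAS, -0.023 to 0.70 for ENO2, -0.42 to 0.11 for INSIG1, -0.16 to 0.56 for GCLC, -0.058 to 0.32 for GPX4, -0.61 to 0.10 for CDC6 and -0.16 to 0.71 for RORA. The cause of these changes was not tested. ETV4, SPRED2 and CDKN1A passed in 1 alternative each. List medians also turned without 1 library, running from -0.03 to 0.18 for SRC-3 and partners, -0.04 to 0.06 for the proteasome, -0.14 to 0.11 for the BCL2 family, -0.04 to 0.04 for drug targets and -0.04 to 0.06 for nuclear receptors.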

Other observations

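Besides CORO7-PAM16, some other annotated read-through transcripts, which run from a gene into its neighbour, differed in their counts. TMED7-TICAM2 had 30 and 69 counts in WT and 0 in both BR SI-2 libraries, with 47, 110, 69 and 0 counts in the DMSO libraries in the order WT and BR. Its parents overlapped between the lines or nearly so, with 1739, 1835, 2042 and 1379 counts for TMED7 and 63, 43, 107 and 62 for TICAM2 under SI-2. ST20-MTHFS went the other way, with 0 counts in both WT and 25 and 10 counts in BR SI-2 libraries, and HSPE1-MOB4 had 14 and 15 against 98 and 59 counts. These genes were chosen after their values were seen, and how many of all read-through transcripts differed was not counted. Reads of such transcripts overlap those of their parents, and how the counting divided them was not tested.

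Without the second BR SI-2 library, 180 of the 185 genes that were higher at an unadjusted p under 0.05 were still higher. All 324 of the lower genes were still lower. These genes were picked in a fit that held the remaining libraries too, so keeping their direction was largely built in and is no independent check. Of the 185, 9 were at least 5 times higher in the second than in the first BR SI-2 library.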
